A study of Mus musculus with 8 samples.

Results

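Most accessible regions counted in an embryonic tissue lie close to other counted regions, and a minority stand far from the next one. Described here are the regions of that minority in mouse tailbuds. They were measured by ATAC-seq, an assay that marks open chromatin by inserting adapters with a transposase, Tn5. A counted region was called isolated when the gap to the nearest other counted region of its chromosome was at least 150 kb on both sides. Of 26620 counted regions on the 19 autosomes, 1246 (4.68%) met this rule, and 25374 did not. The first and the last region of each chromosome, 38 in all, had no neighbour on one side and were kept among the others. The rule used positions alone and no count.

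Tailbuds were taken at embryonic day 9.5, and the series has 4 libraries of wild-type genotype (WT/WT) and 4 of Danforth's short tail homozygotes (Sd/Sd). Both genotypes were of the outbred CD-1 stock, in which embryos differ from each other also away from the mutation. Some libraries may combine several mice, since pooling was done when needed, and which ones do is not known. Every p-value here therefore refers to variation from library to library. A tailbud holds many cell types, and fewer cells with an open region cannot be told apart from a lower accessibility per cell.

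As background, gene deserts are long intervals without protein-coding genes, and some hold enhancers that act on developmental genes over large distances. An open region far from any other can be a distal enhancer, a site bound by the insulator protein CTCF, a lone promoter or a repeat that gathers reads. Danforth's short tail is an insertion of a retrotransposon upstream of Ptf1a, a transcription factor gene of pancreas and neural tube, and shortens the vertebral column. The counted regions carry no gene names, and no annotation of their genome build (mm9) was used here. Isolation therefore means distance from other counted regions, distance from genes was not measured, and the tissue was not checked against marker genes.

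The isolated regions were moderately accessible. Over the 8 libraries the median isolated region had 22.9 CPM (counts scaled to the library's total over all regions), against 26.0 CPM for the median other region. The 10th and 90th percentiles of the isolated regions were 11.1 and 69.0 CPM, and the whole range ran from 5.26 to 247 CPM. In each of the 8 libraries the median isolated region lay below the median other region. The ratio of both medians averaged 0.878 ± 0.026 over the WT and 0.886 ± 0.033 over the Sd/Sd libraries (SD, n = 4 each), and its lowest and highest values over the 8 libraries were 0.839 and 0.915. Isolated regions together took 4.10 to 4.15% of the counts of the WT libraries and 4.05 to 4.24% of those of the Sd/Sd libraries. This corresponds to 118451 to 177370 counts per library, out of totals of 2873918 to 4180434. The median isolated region received between 66 and 97 counts per library.

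Their width was close to that of the other regions. The median was 861.5 bp, against 875 bp for all others, while both ends of the distribution were a little fuller. Regions under 400 bp made up 15.3% of the isolated and 13.7% of the other regions, and those over 1600 bp 12.9% and 10.3%. Wider regions collected more counts, with a Spearman's rho between width and mean CPM of 0.85 over the 1246 isolated regions and 0.84 over the others. Both measures share the region's bounds, and regions are not independent replicates. At like width the isolated regions still had fewer counts. Between 800 and 1200 bp their median was 26.8 CPM against 30.9 CPM, and between 1200 and 1600 bp 39.0 against 46.8 CPM, in both classes with the lower value in 8 of 8 libraries. Between 400 and 800 bp the values were 16.2 and 18.2 CPM (lower in 8 of 8 libraries). The gap narrowed at the ends, to 10.8 against 11.3 CPM under 400 bp (lower in 7 of 8) and 65.3 against 69.3 CPM from 1600 bp upward (lower in 8 of 8).

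**Figure D1:**
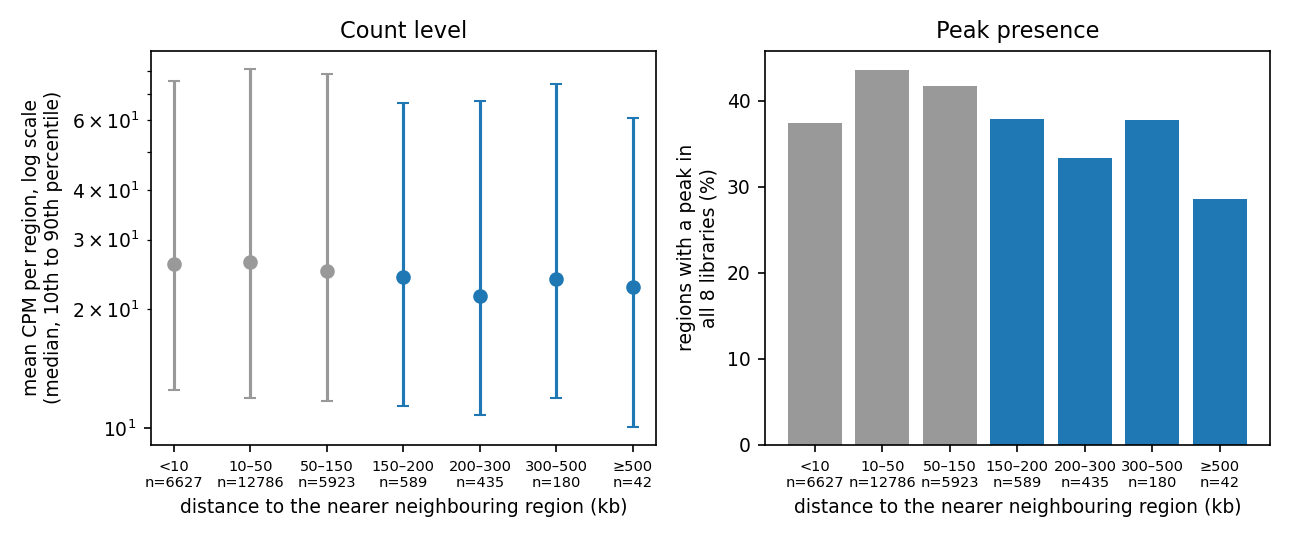
Left, median of the mean CPM per region (points) with the 10th to 90th percentile (bars) on a log scale, by distance to the nearer neighbouring region in kb. Right, percent of regions with a peak in all 8 libraries. Blue marks isolated regions and grey all others. The median runs from 26.0 CPM below 10 kb to 22.7 CPM from 500 kb upward, with wide overlap.

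Read over the whole range of distances, the median level changed little and not in 1 direction, as the plot of level by distance shows. Regions whose nearer neighbour lay 10 to 50 kb away had a median of 26.3 CPM, those at 150 to 200 kb 24.1 CPM, those at 200 to 300 kb 21.6 CPM, those at 300 to 500 kb 23.8 CPM, and the 42 regions at 500 kb or more 22.7 CPM. The count per kb of region declined at each step. It was 35.1 CPM per kb below 10 kb, 30.8 at 150 to 200 kb, 28.9 at 300 to 500 kb and 26.5 from 500 kb upward. Among the isolated regions themselves the distance to the nearer neighbour and the mean CPM had a Spearman's rho of -0.03. The 5974 regions with a gap of at least 150 kb on 1 side only had a median of 24.2 CPM, which lies between isolated and other regions.

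The gaps around an isolated region were long. The median gap was 262 kb before and 260 kb after the region, and both gaps together had a median of 577 kb and reached 3902 kb. They exceeded 1 Mb in sum at 164 isolated regions. The region with the largest smaller gap, on chromosome 15 from 17028025 to 17029037, had no counted region for 2008 kb before and 1719 kb after it. It had 18.3, 14.9, 18.1 and 19.6 CPM in WT replicates 1 to 4 and 19.7, 20.4, 25.3 and 21.3 CPM in Sd/Sd. Every Sd/Sd library lay above every WT library, but only just (19.6 CPM in WT replicate 4 and 19.7 CPM in Sd/Sd replicate 1). The log2 fold change was 0.29 with a 95% interval of -0.09 to 0.67 (adjusted p = 0.876 in edgeR), and peaks were called in 1 WT library and in all 4 Sd/Sd libraries. The next 4 were a region of 790 bp on chromosome 18 at 28.24 Mb, of 1246 bp on chromosome 8 at 53.56 Mb, of 1888 bp on chromosome 9 at 47.34 Mb and of 1092 bp on chromosome 12 at 27.10 Mb. Their mean levels were 35.4, 28.6, 51.2 and 29.7 CPM, so the loneliest regions were near the middle of the range of all isolated regions or above it. In the same order their log2 fold changes were -0.02, 0.07, -0.18 and -0.43 (adjusted p from 0.709 to 0.997 in edgeR). The region on chromosome 12 had a 95% interval of -0.73 to -0.12.

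Near the threshold the members did not stand apart from the regions that missed it. The 3 regions just inside had a smaller gap of 150.02 to 150.06 kb and mean levels of 19.7 CPM (chromosome 12 at 73.34 Mb), 34.2 CPM (chromosome 11 at 74.18 Mb) and 22.5 CPM (chromosome 12 at 75.89 Mb). Just outside, with 149.94 to 149.98 kb, were regions of 22.7 CPM (chromosome 5 at 97.05 Mb), 17.9 CPM (chromosome 8 at 93.19 Mb) and 17.2 CPM (chromosome 12 at 98.52 Mb).

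Isolated regions often followed one another. Of the 1246, 700 (56.2%) had another isolated region as a direct neighbour, and 546 stood as single isolated regions between regions of the ordinary kind. Direct neighbours share a gap, so the neighbour of an isolated region already meets the rule on that side. The share was not compared with a baseline. Runs of 2 were found 172 times, runs of 3 70 times and runs of 6 or 7 4 times. The run of 7 covered 2.82 Mb of chromosome 3, from 46251265 to 49070309, with regions of 250 to 1530 bp and mean levels from 7.25 to 80.6 CPM. The runs of 6 lay on chromosome 3 from 11960898 to 13473499, on chromosome 14 from 11823084 to 13363028 and on chromosome 16 from 59846405 to 61904976. Each of these 4 runs held both a region with a peak in only 2 libraries and a region with a peak in all 8. Log2 fold changes between the genotypes in the run of 7 lay between -0.23 and 0.16.

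By chromosome, the isolated share ran from 2.67% of the regions of chromosome 2 (65 of 2432) to 7.22% on chromosome 15 (64 of 886). Chromosome 7 was next to chromosome 2 with 3.38%, and chromosomes 18, 19 and 12 were close to chromosome 15 with 7.13%, 7.10% and 6.64%. The share was high where counted regions were sparse. Chromosome 2 had 13.6 counted regions per Mb and chromosome 15 had 8.84, and over the 19 autosomes the density and the isolated share had a Pearson's r of -0.92 and a Spearman's rho of -0.88. Both measures are computed from the same region positions. Per length, chromosome 19 held 6.72 isolated regions in 10 Mb and chromosome 2 held 3.64. The lower level of isolated regions was found on 15 of 19 chromosomes. The exceptions were chromosomes 15, 17, 18 and 19, where the median isolated region had 25.8, 30.2, 31.8 and 30.5 CPM against 24.1, 25.9, 26.0 and 24.3 CPM for the others.

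**Figure D2:**
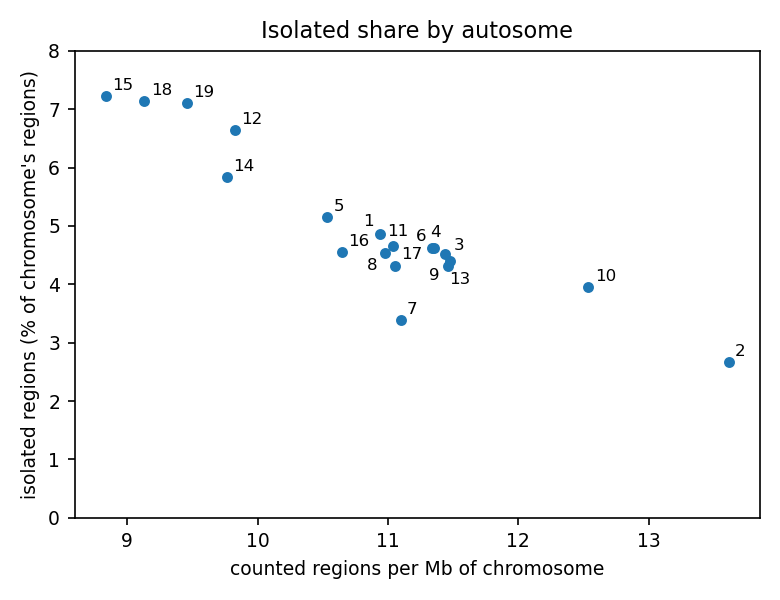
Percent of a chromosome's counted regions that are isolated against its number of counted regions per Mb, 1 point for each of the 19 autosomes, labelled by number. Chromosome 2 (2.67%) and chromosome 15 (7.22%) mark the ends.

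The authors called peaks in each library alone, and the number of libraries with a peak shows how reproducibly a region was found. Of the isolated regions, 448 (36.0%, 95% Wilson interval 33.3 to 38.7%) had a peak in all 8 libraries, against 41.6% of the others. A peak in only 2 or 3 libraries was found at 387 isolated regions (31.1%) and at 25.4% of the others. The interval treats regions as independent and covers counting error only. Isolated regions with peaks in all 8 libraries had a median of 48.4 CPM and a median width of 1195.5 bp, close to the 49.5 CPM and 1153 bp of other regions with 8 peaks. Those with 2 peaks had 12.6 CPM and 517.5 bp. Peak calling per library ranged from 56.1% of the isolated regions in WT replicate 3, the library of lowest total count, to 82.7% in Sd/Sd replicate 4, the library of highest. It was lower than at other regions in each of the 8 libraries, with 63.3 ± 8.0% against 68.4 ± 6.2% over the WT and 71.9 ± 8.1% against 75.4 ± 7.1% over the Sd/Sd libraries (SD, n = 4 each).

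Isolation among counted regions did not mean absence of any signal nearby. At 325 of the 1246 isolated regions (26.1%) no library had any other peak within 150 kb. At 986 (79.1%) no interval with peaks of 2 or more libraries lay within that distance.

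**Figure D3:**
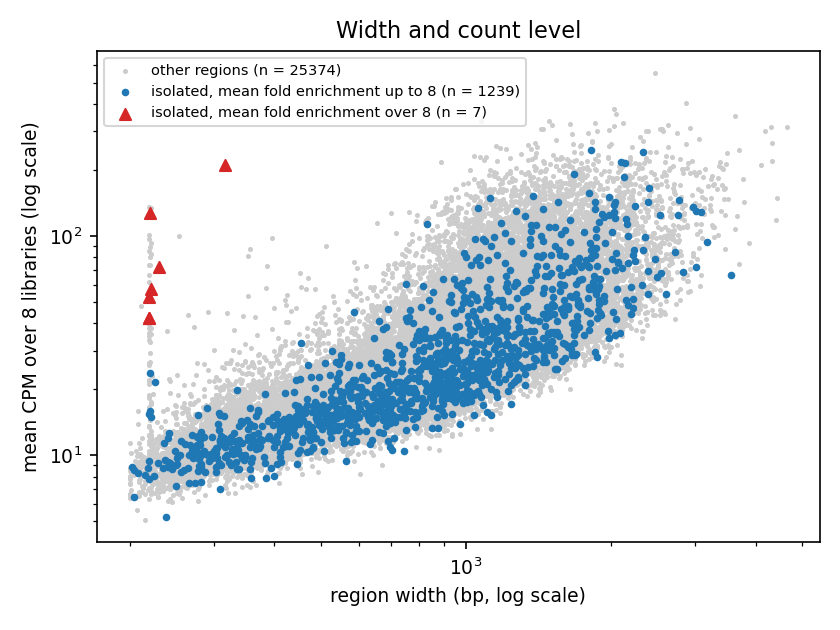
Width of each region in bp against its mean CPM over 8 libraries, both on log scales, for other regions (grey), isolated regions (blue) and the 7 isolated regions with a mean fold enrichment over 8 (red triangles). The red triangles, 219 to 316 bp wide, lie far above the median of other regions under 400 bp (11.3 CPM). The 52 other regions with such an enrichment (median width 221 bp, median 63.0 CPM) are among the grey points.

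The highest levels among isolated regions came from regions of 2 kinds. Of the 5 with the highest CPM, 4 were wide. The region on chromosome 2 from 53049839 to 53051656 (1818 bp) had 251, 250, 243 and 256 CPM in WT and 275, 207, 244 and 249 CPM in Sd/Sd. Those on chromosome 9 at 85.22 Mb (2338 bp), chromosome 2 at 78.71 Mb (2096 bp) and chromosome 19 at 12.87 Mb (2143 bp) had means of 240, 218 and 216 CPM. The fold enrichment of their peaks, the peak caller's own value, averaged 2.99 to 4.29, which is within the range of ordinary regions. All 4 had a peak in every library.

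The remaining one was only 316 bp wide. It lies on chromosome 10 from 71759826 to 71760141 and had 215, 240, 239 and 178 CPM in WT and 214, 206, 184 and 212 CPM in Sd/Sd, which is 668 CPM per kb. Its peaks had a fold enrichment of 16.7 to 19.8. The Sd/Sd range lay within the WT range.

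With 6 more regions it formed a small class of narrow, strongly enriched isolated regions, singled out after the values were seen. These 7 had a mean fold enrichment over 8, where the next isolated region had 7.66 and the median isolated region 3.26. They were 219 to 316 bp wide and had a peak in all 8 libraries. Beside chromosome 10 they lay on chromosome 12 at 48.08 Mb (mean fold enrichment 23.9) and 80.60 Mb (15.5), chromosome 11 at 46.49 Mb (19.2), chromosome 15 at 14.67 Mb (17.7), chromosome 4 at 90.09 Mb (12.1) and chromosome 5 at 56.91 Mb (11.5). Counts per kb were between 193 and 668 CPM, against a median of 30.4 over all isolated regions. Over all counted regions 59 had such an enrichment, and isolated regions were 11.9% of them, while they were 4.68% of all regions. The 52 others had a median width of 221 bp, and the next region below 8 among the others had 7.97. Of the 7, 6 had a log2 fold change below 0 and 4 had an unadjusted p under 0.05 in edgeR. Of the 52 others, 40 lay below 0 and 12 had such a p. Over all regions that were not isolated, 49.9% lay above 0 and 6.02% had such a p. The cause was not tested.

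Many of these regions shared nearly the same width. Regions of 219 to 222 bp numbered 108, against 82 over all widths from 201 to 218 bp and 175 over those from 223 to 240 bp. Of the 108, 11 were isolated, and 9 of these 11 had a peak in all 8 libraries. By contrast 0 of 6 isolated regions of 201 to 218 bp and 2 of 11 of 223 to 240 bp had one. The median isolated region of 219 to 222 bp had 23.6 CPM, against 8.44 and 9.32 CPM on either side. Whether repeated sequence underlies these widths was not tested, since no genome of this build was used.

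At the other end, the isolated regions of lowest level were narrow and rested on few counts. The region on chromosome 4 from 37704514 to 37704751 had 4.93, 3.97, 4.18 and 3.81 CPM in WT and 2.50, 5.82, 8.75 and 8.13 CPM in Sd/Sd, from 9 to 34 counts. The next were on chromosome 5 at 27.74 Mb (6.48 CPM) and chromosome 17 at 49.96 Mb (6.73 CPM in WT and 7.27 CPM in Sd/Sd on average), each with a peak in 2 libraries. The narrowest, of 202 bp on chromosome 6 at 27.61 Mb, had 8.89 CPM, and that of 204 bp on chromosome 4 at 37.51 Mb, as wide as the one on chromosome 5, had 8.61 CPM. Of these 5, the region on chromosome 5 had the largest log2 fold change (0.82, 95% interval 0.13 to 1.52, adjusted p = 0.792 in edgeR), and no difference was detectable after adjustment at this depth.

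The widest isolated regions differed in their count per length. The region on chromosome 19 from 58527703 to 58531256 (3554 bp) had 61.1, 60.9, 74.8 and 74.96 CPM in WT and 63.0, 64.4, 66.4 and 62.9 CPM in Sd/Sd. This is 18.6 CPM per kb, below the median isolated region, with a peak in 2 of 4 WT and 4 of 4 Sd/Sd libraries. Those on chromosome 19 at 55.82 Mb (3164 bp), chromosome 11 at 31.27 Mb (3088 bp) and chromosome 18 at 14.13 Mb (3012 bp) had 29.5, 41.8 and 24.0 CPM per kb, of which only the one on chromosome 11 exceeded the median isolated region (30.4).

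Between libraries of one genotype, isolated regions varied about as much as other regions of like count. With a mean of 50 to 100 counts the median coefficient of variation within genotypes was 17.2% for isolated and 17.1% for other regions, and with 200 counts or more 8.90% and 8.76%. Any 2 libraries had a Spearman's rho of 0.905 to 0.929 over the 1246 isolated regions. A few departed from this. Picked after the values were seen, the 5 of largest fitted biological coefficient of variation had 24.5 to 52.4%, against 20.7% for the sixth and a median of 13.6%.

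The most variable region lies on chromosome 2 from 176583466 to 176583870 and had 1.45, 17.2, 9.39 and 7.32 CPM in WT and 9.72, 4.53, 8.14 and 15.1 CPM in Sd/Sd, from 5 to 63 counts. High and low libraries occurred in both genotypes. On chromosome 12 from 116855430 to 116855850 WT replicate 1 (36.5 CPM) and Sd/Sd replicate 1 (29.2 CPM) stood above the other 6 libraries (10.5 to 17.7 CPM). On chromosome 14 from 50680835 to 50682495 the levels were 101, 113, 54.3 and 90.5 CPM in WT and 49.7, 75.1, 32.0 and 64.6 CPM in Sd/Sd. Replicate 3 was lowest and replicate 2 highest in both genotypes. The groups overlapped, although each Sd/Sd library lay below the WT library of its number, and pairing at single regions was not tested. The log2 fold change of -0.69 had a 95% interval of -1.47 to 0.09 with genotype as the only term (adjusted p = 0.846 in edgeR). Without robust variance this region passed (adjusted p = 0.0012 in edgeR). The remaining pair, on chromosome 14 at 8.15 Mb (28.4 to 66.9 CPM) and chromosome 7 at 54.84 Mb (57.6 to 112 CPM), also varied within both genotypes.

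The comparison of the genotypes asked whether chromatin accessibility in Sd/Sd tailbuds differs at isolated regions. No isolated region passed an adjusted p of 0.05 (0 of 1246, edgeR quasi-likelihood test, Benjamini-Hochberg over all 26620 regions), where 5 of all regions did (0.0188%). DESeq2 and limma with voom weights also called 0 isolated regions, while edgeR without robust variance called 1 (0.0803%, against 0.0552% of the others). When 1 library was left out, edgeR called 0 to 2 (0 to 0.161%, against 0.00788 to 0.0709% of the others). An unadjusted p under 0.05 was reached by 45 isolated regions with a higher level in Sd/Sd (3.61%, against 2.98% of all regions) and by 41 with a lower level (3.29%, against 3.09%). The 4 Sd/Sd libraries all lay above the 4 WT libraries at 25 isolated regions (2.01%, against 1.6% of all regions) and all below at 25 (2.01%, also against 1.6%). These shares are near the background. With DESeq2 an unadjusted p under 0.05 was found at 68 isolated regions (5.46%, against 4.37% of the others), and with limma at 97 (7.78%, against 5.95%).

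**Figure D4:**
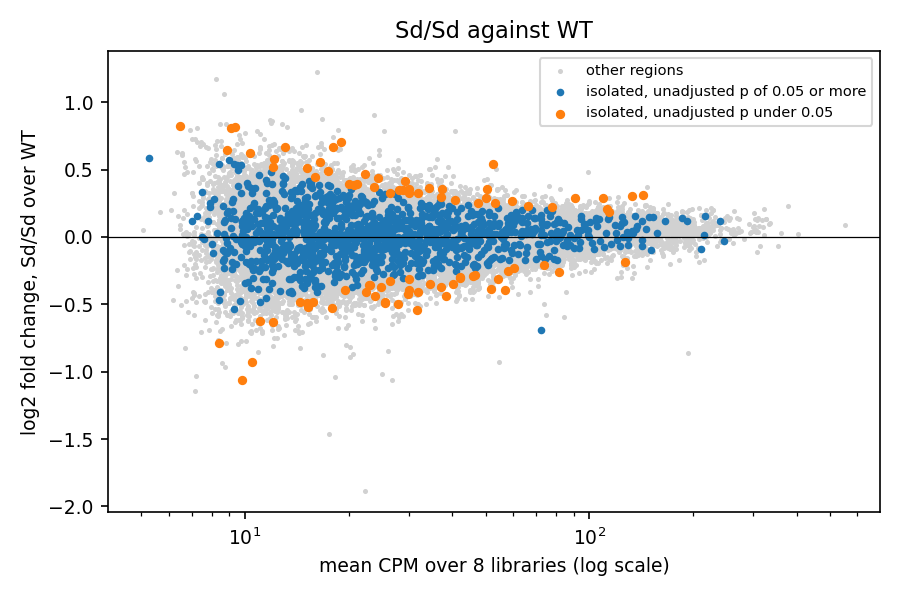
Log2 fold change of Sd/Sd over WT against mean CPM (log scale) for other regions (grey), isolated regions with an unadjusted p of 0.05 or more (blue) and the 86 isolated regions below 0.05 (orange). Orange points lie on both sides of 0, 45 above and 41 below.

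The precision of the comparison was a little lower than elsewhere. The 95% interval of the fitted change reached 0.35 log2 units (1.28-fold) to each side at the median isolated region, and 0.33 (1.25-fold) at the median other region. It lay within a 2-fold change for 1216 isolated regions (97.6%) and within a 1.5-fold change for 841 (67.5%), against 98.1% and 74.1% of the others. Isolated regions with peaks in all 8 libraries had an unadjusted p under 0.05 at 38 of 448 (8.48%), 20 higher and 18 lower. Those with peaks in 2 or 3 libraries had one at 16 of 387 (4.13%), and the corresponding shares of other regions were 6.07% and 5.58%. Among the 222 isolated regions with gaps of at least 300 kb it was 8 (3.604%), and among the 42 with 500 kb or more it was 1 (2.38%). Of all other regions, 6.02% had such a p.

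The median log2 fold change was 0.019 over isolated regions and -0.00033 over all others, and 679 isolated regions (54.5%) lay above 0, against 49.9% of the others. This small shift moved with the libraries included. Without Sd/Sd replicate 4, the library of highest total count, the median was 0.0036 over isolated and -0.0037 over other regions, and 51.0% of the isolated regions lay above 0. Without Sd/Sd replicate 1 the isolated median was 0.035, and without WT replicate 2 it was 0.011. In Sd/Sd replicate 4 the median isolated region deviated by 0.060 log2 units from the mean of the 8 libraries. In Sd/Sd replicates 2 and 3 it deviated by 0.028, and in Sd/Sd replicate 1 by -0.024. The WT libraries lay between -0.017 and 0.013, so 3 Sd/Sd libraries lay above them and 1 below. The part of depth in this shift was not tested.

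**Figure D5:**
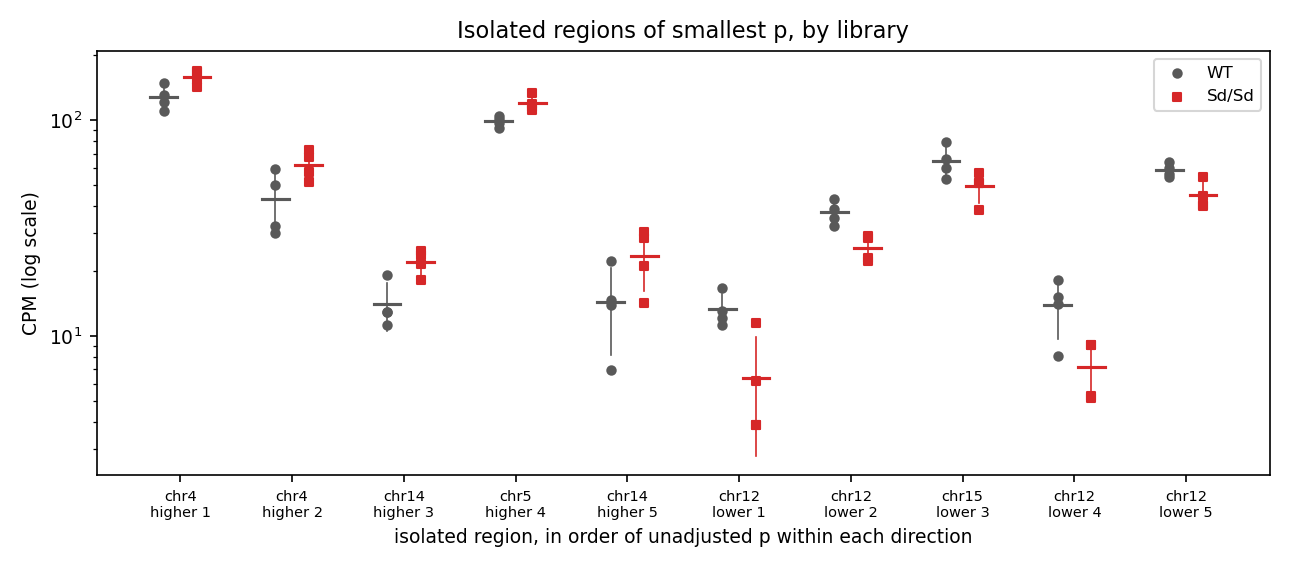
CPM (log scale) in each WT (grey circles) and Sd/Sd (red squares) library at the 5 isolated regions of smallest unadjusted p in each direction, with the mean (horizontal line) ± SD (vertical line), n = 4 each. From left to right they are chromosome 4 at 73.66 and 90.09 Mb, 14 at 42.96, 5 at 71.49 and 14 at 7.44 Mb, then chromosome 12 at 61.06 and 22.09 Mb, 15 at 14.67 and 12 at 6.09 and 22.81 Mb. The groups overlap in 7 of the 10.

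Those of smallest p are shown in the plot by library. None passed the threshold, with adjusted p from 0.343 to 0.552 in edgeR, and choice by small p favours separation of the groups. Highest in level was the region on chromosome 4 from 73659035 to 73660587 (1553 bp), with 131, 111, 121 and 149 CPM in WT and 143, 167, 154 and 170 CPM in Sd/Sd. Only WT replicate 4 reached into the Sd/Sd range. The means were 128 ± 16.1 and 158 ± 12.5 CPM (SD, n = 4 each), a log2 fold change of 0.31 (SE 0.086, adjusted p = 0.343 in edgeR).

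Another region of chromosome 4, from 90090969 to 90091187, is one of the narrow, strongly enriched class. It had 32.5, 30.1, 59.2 and 50.1 CPM in WT and 57.5, 72.5, 67.3 and 51.7 CPM in Sd/Sd. WT replicate 3 lay within the Sd/Sd range, and the other WT libraries lay below it. Its log2 fold change was 0.54 (SE 0.15, adjusted p = 0.383 in edgeR), and without WT replicate 3 it was 0.72 and passed (adjusted p = 0.00144).

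On chromosome 14 a region from 42963370 to 42964262 had 11.3, 12.9, 19.1 and 12.9 CPM in WT and 21.7, 18.1, 24.7 and 23.7 CPM in Sd/Sd. WT replicate 3 exceeded the lowest Sd/Sd library. A peak was called there in 0 of 4 WT and 3 of 4 Sd/Sd libraries. Its log2 fold change was 0.67 (SE 0.20, adjusted p = 0.439 in edgeR). The region on chromosome 14 from 7436800 to 7437866 ranged from 6.96 to 22.3 CPM in WT and from 14.2 to 30.4 CPM in Sd/Sd (log2 fold change 0.70). It passed without WT replicate 1 (adjusted p = 0.0227 in edgeR) or without Sd/Sd replicate 3 (0.0407) and had an adjusted p of 0.552 with all libraries. On chromosome 5 from 71486389 to 71487874, the groups did not overlap, with 92.2 to 105 CPM in WT and 111 to 134 CPM in Sd/Sd (log2 fold change 0.29, adjusted p = 0.502 in edgeR).

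Of the 5 lower in Sd/Sd, 4 lay on chromosome 12. Smallest in p was the region from 61062103 to 61062417 (315 bp), with 13.04, 11.3, 12.2 and 16.7 CPM in WT and 3.89, 3.88, 11.5 and 6.22 CPM in Sd/Sd. Sd/Sd replicate 3 alone reached the WT range, and the authors called a peak in 4 of 4 WT and 1 of 4 Sd/Sd libraries. The log2 fold change was -1.06 (95% interval -1.63 to -0.49, adjusted p = 0.343 in edgeR), and without Sd/Sd replicate 3 it was -1.48 and passed (adjusted p = 0.0203). These values rest on 12 to 57 counts per library.

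A further pair on that chromosome had the same direction. The first, on chromosome 12 from 22086333 to 22087175, had 32.5, 38.7, 35.1 and 43.3 CPM in WT and 23.1, 28.5, 29.0 and 22.2 CPM in Sd/Sd. Farther along, from 22810876 to 22811982, the levels were 56.5, 54.3, 64.0 and 60.0 CPM in WT and 40.5, 44.7, 54.3 and 40.2 CPM in Sd/Sd. In both the groups did not overlap, in the latter only just (54.31 CPM in WT replicate 2 and 54.29 CPM in Sd/Sd replicate 3), and the log2 fold changes were -0.55 and -0.38 (adjusted p = 0.351 and 0.493 in edgeR). The region on chromosome 12 from 6094001 to 6094506 ranged from 8.11 to 18.1 CPM in WT and from 5.18 to 9.09 CPM in Sd/Sd (log2 fold change -0.93, adjusted p = 0.428 in edgeR). On chromosome 15 from 14671546 to 14671767, in the narrow, strongly enriched class, the ranges were 53.3 to 79.5 and 38.3 to 57.0 CPM (log2 fold change -0.39, adjusted p = 0.415 in edgeR).

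Counts of small p by chromosome, picked out after they were seen, were uneven among isolated regions. On chromosome 12, 0 of 77 isolated regions had an unadjusted p under 0.05 with a higher level in Sd/Sd and 10 with a lower one, against 32 and 51 of the 1082 other regions of that chromosome. On chromosome 11 the isolated regions had 7 higher and 2 lower of 61, whereas the 1251 others had 22 higher and 97 lower. The median log2 fold change there was 0.017 for isolated and -0.057 for other regions. Whether isolated and other regions of a chromosome differ was not tested.

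Around the mutation, 4 of the 29 counted regions from 18 to 21 Mb of chromosome 2 were isolated, at 18.31, 18.92, 19.83 and 20.21 Mb. All 4 had a peak in each of the 8 libraries and levels above the median isolated region. WT and Sd/Sd averaged 62.9 ± 10.1 and 64.2 ± 2.2 CPM at 18.31 Mb, and at 18.92 Mb 55.0 ± 7.4 and 49.2 ± 3.9 CPM. At 19.83 Mb it was 52.9 ± 2.7 and 55.7 ± 6.3 CPM, and at 20.21 Mb 33.2 ± 6.8 and 38.6 ± 4.0 CPM (mean ± SD, n = 4 each). In each of the 4 the genotypes overlapped, with log2 fold changes from -0.16 to 0.22 and no unadjusted p below 0.121 in edgeR. The 95% intervals ran from -0.39 to 0.08 at 18.92 Mb and from -0.06 to 0.51 at 20.21 Mb.

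A segment of chromosome 17 from 23 to 47 Mb was picked because earlier results of these data showed lower levels there, so its direction is a description. In it, 7 of 297 regions were isolated, and all 7 had log2 fold changes below 0, from -0.48 to -0.02 (median -0.23). Of the 290 other regions of that segment, 209 (72.1%) were below 0, with a median of -0.11. The largest of the 7, from 25410225 to 25411312, had 31.3, 31.1, 27.5 and 29.3 CPM in WT and 29.2, 17.5, 20.8 and 17.5 CPM in Sd/Sd. Sd/Sd replicate 1 lay within the WT range, and the adjusted p was 0.669 in edgeR.

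Peak presence gave a different picture from the counts. An isolated region had a peak in more Sd/Sd than WT libraries at 404 places (32.4%) and in fewer at 148 (11.9%), and the corresponding shares of other regions were 29.1% and 13.2%. Total counts ran from 2873918 to 3451166 in WT and from 3090233 to 4180434 in Sd/Sd, and their part in this difference was not tested. All 4 Sd/Sd libraries but no WT library had a peak at 3 isolated regions (0.241%, against 0.303% of the others). The reverse was found at 1 (0.0803%, against 0.0276% of the others). On chromosome 14 from 30534367 to 30536348, with peaks in Sd/Sd alone, the counts were 34.2, 37.4, 33.1 and 28.7 CPM in WT and 30.3, 42.1, 32.3 and 35.9 CPM in Sd/Sd. The groups overlapped (log2 fold change 0.08, 95% interval -0.21 to 0.37). The others of this kind, on chromosome 6 at 76.08 Mb and 117.36 Mb, had means of 15.7 ± 4.3 and 19.2 ± 2.1 CPM and of 12.5 ± 1.4 and 17.7 ± 4.5 CPM in WT and Sd/Sd (SD, n = 4 each). Peaks in WT alone were called on chromosome 14 from 95694381 to 95695828, with 37.2 ± 2.5 CPM in WT and 31.0 ± 5.4 in Sd/Sd, where Sd/Sd replicate 4 (38.8 CPM) lay among the WT libraries. None of these 4 passed an adjusted p of 0.05 (0.795 to 0.978 in edgeR).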

How the data were processed

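Per the submitters' processing notes, the build was mm9, and BWA 0.7.15-r1140, MACS2 2.1.1.20160309 and bedtools 2.26.0 were among the tools. Settings are not stated. The authors deposited raw whole-number counts per region for each library, over regions shared by all 8. The thing counted (reads, fragments or cuts) is not named. They also deposited broad peaks called in each library alone, with the peak caller's score, fold enrichment (a ratio) and −log10 p-value and q-value. The score and p-value were not used.

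CPM is a count scaled to the library's total over all regions. Starts are 1-based. A peak was assigned to a region at an overlap of at least 1 bp. The genotypes were compared over all 26620 regions with edgeR 4.0.16 (quasi-likelihood F test, robust, two-sided, TMM scaling, genotype as the only term) in R 4.3.3. Benjamini-Hochberg adjustment ran across the full table, and 0.05 was the threshold. The low-count filter removed 0 regions. The procedure was tested on simulated data. DESeq2 1.42.0, limma 3.58.1, other scalings, filters and gaps, a fit blocked by replicate number and fits lacking 1 library were alternatives. Summaries used Python 3.11.15 and SciPy 1.17.1.

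Regions were named by rule: extremes of p (5 each way), CPM, width and gap, those nearest the 150 kb threshold, those around the mutation and those with peaks in 1 genotype only. Outside this rule, chosen after values were seen, were the chromosome 17 segment, the strongly enriched and the most variable regions, and those called under an alternative. The members, lists and rules were chosen with earlier results of these data known. Over the regions taken as a set, same-numbered libraries did not deviate together, so replicate numbers were not used as pairs. At some of the most variable regions the same replicate number was lowest in both genotypes.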

Additional observations from a re-analysis of the deposited data

Results flagged for a closer look

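Dixon's ratio was computed for 128 sets of 4 libraries of 1 genotype, and in 4 sets a single library stood off. About 1 set in 20 does so by chance. Sd/Sd replicate 3 was such a library at 2 isolated regions. It had 60.9 CPM on chromosome 2 at 18.31 Mb, where the remaining Sd/Sd libraries had 65.1 to 65.7 CPM, and 33.8 CPM on chromosome 8 at 53.56 Mb, where they had 27.2 to 28.2 CPM. The other two flags fell on WT replicate 4, both on chromosome 17. At 26.64 Mb it had 31.9 CPM, below the 41.1 to 42.0 CPM of the remaining WT libraries, and at 49.96 Mb 10.5 CPM, above their 4.97 to 5.92 CPM.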

How the results depend on the processing

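The number of isolated regions was 2671 with a gap of at least 100 kb, 657 with 200 kb and 222 with 300 kb. In that order their median CPM was 23.7, 22.2 and 23.6, their median width 866, 850 and 909 bp, and their share of library counts 9.35, 2.14 and 0.745%. The ratio of median CPM to that of other regions was 0.910 at 100 kb and 0.914 at 300 kb, against 0.882 at 150 kb, so isolated regions stayed lower at each gap tried. Unadjusted p under 0.05 were found at 177, 41 and 8 of these regions (6.63, 6.24 and 3.604%). With 150 kb the share was 6.902% of isolated and 6.02% of other regions. At 100 kb 1 region was called (0.0374%, against 0.0188% of all regions), on chromosome 17 from 25864251 to 25864762. This region had a log2 fold change of -0.89 (adjusted p = 0.0409 in edgeR) and is not isolated at 150 kb. A peak in all 8 libraries was found at 38.7% with 100 kb, and the median number of libraries with a peak was 5 with 200 kb. With gaps measured to peaks shared by 2 or more libraries the median width was 861 bp and the share of counts 3.35%. With peaks of q at most 1e-05, 8.59% of isolated regions had a peak in all 8 libraries and the median number of libraries was 0, and with peaks over at least 50% of the region these values were 12.9% and 3. Without robust variance edgeR called 1 isolated region (0.0803%, against 0.0552% of the others), on chromosome 14 at 50.68 Mb. Leaving out 1 library gave 0 to 2 called isolated regions (0 to 0.161%, against 0.00788 to 0.0709% of the others). An unadjusted p under 0.05 was then found at 73 to 115 (5.86 to 9.23%, against 4.77 to 7.67% of the others). Median CPM ran from 22.8 to 23.2 and ratios from 0.878 to 0.892. Without Sd/Sd replicate 1 the call was chromosome 17 at 70.32 Mb (adjusted p = 0.0333 in edgeR). The log2 fold change at 18.31 Mb of chromosome 2 was 0.04 with all libraries, ran from -0.049 (without WT replicate 1) to 0.116 when 1 was left out, and was -0.0022 without WT replicate 2. With the replicate block 3 isolated regions were called (0.241%, against 0.0788% of the others), on chromosome 14 at 50.68 Mb (log2 fold change -0.70, adjusted p = 4.74e-08 in edgeR) and chromosome 4 at 73.66 and 90.09 Mb. Same-numbered libraries correlated at -0.001 to 0.092 in their deviations, and 1 of 4 WT libraries correlated best with its own number. The labels' numbers thus show no pairing over the regions as a set, and pairing at single regions was not tested. The cause of these movements was not tested. Depth limits the regions of fewest counts.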
